A study of Mus musculus with 9 samples.

Results

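The variable (V) segments of the T cell receptor alpha and beta chains were read from bulk RNA-seq of CD8+ T cells that bind the same tumor peptide. Members were all genes with a mouse symbol starting with Trav or Trbv and the gene type TR_V_gene in the annotation, 120 of the 32976 genes counted, 99 for the alpha chain and 21 for the beta chain. The cells were CD8+CD44+ tumor-infiltrating lymphocytes (TILs) of wild-type BALB/c mice, sorted with a tetramer of GSW11, a peptide presented by CT26 colon carcinoma cells. All mice carried CT26 tumors under the skin and received the PD-1 antibody RMP1-14 on days 3, 6 and 9, so no library came from an untreated mouse. The 3 groups held 3 libraries each and were TetHighProg (high tetramer staining, progressing tumors, replicates 1, 2 and 5), TetLowProg (low staining, progressing tumors, replicates 9, 10 and 12) and TetLowReg (low staining, regressing tumors, replicates 6, 7 and 8). The study took its cells from 3 progressing and 3 regressing tumors, but the labels do not tie a library to a tumor, so p-values measure the spread between these libraries, which may be partly technical.

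A T cell receptor has an alpha and a beta chain, and the gene for each chain is assembled in the thymus from separate pieces. One V segment is cut and joined to a joining (J) segment, with a diversity (D) segment between them in the beta chain, and the product is spliced to a constant gene. The V segment encodes most of the domain that touches the peptide and its presenting molecule, and the junction encodes the most variable loop. A cell that divides passes its rearranged genes to its daughters, so a population grown from few cells is expected to share few segments. Counts per gene give the V, J and constant genes separately and do not show which alpha chain paired with which beta chain, nor the junction itself. In bulk RNA, more cells with a segment and more receptor RNA per cell cannot be told apart.

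The ends of 6 segments that each led a library are printed first, since it is at these ends that V segments differ in the bases they bring to the junction. Each run holds the last 60 bases of the V exon and the 39 bases after it, in GRCm39 and on the strand of the gene. Capitals mark the codon of the last in-frame cysteine, where the junction begins, and the letters CACAGTG, the heptamer that the recombinase recognizes.
Trav3-3 (chr14:53903904-53904002, plus strand): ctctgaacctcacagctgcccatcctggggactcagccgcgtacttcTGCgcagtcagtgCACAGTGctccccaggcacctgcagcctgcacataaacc
Trbv13-1 (chr6:41093343-41093441, plus strand): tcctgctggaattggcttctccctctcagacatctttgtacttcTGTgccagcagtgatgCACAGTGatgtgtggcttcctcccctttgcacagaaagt
Trbv13-2 (chr6:41098707-41098805, plus strand): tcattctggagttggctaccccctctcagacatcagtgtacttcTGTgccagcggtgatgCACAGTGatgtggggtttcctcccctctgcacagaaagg
Trbv13-3 (chr6:41107460-41107558, plus strand): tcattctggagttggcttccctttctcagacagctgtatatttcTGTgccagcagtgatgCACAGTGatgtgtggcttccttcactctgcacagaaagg
Trbv17 (chr6:41140431-41140529, plus strand): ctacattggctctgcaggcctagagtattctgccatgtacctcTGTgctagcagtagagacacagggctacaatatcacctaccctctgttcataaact
Trbv31 (chr6:41534588-41534686, minus strand): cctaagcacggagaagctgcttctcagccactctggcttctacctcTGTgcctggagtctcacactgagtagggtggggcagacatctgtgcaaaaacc
Within 20 bases of the exon end, on the strand of the gene alone, the exact letters CACAGTG were found in 85 of the 99 alpha members and in 8 of the 21 beta members. They were found in 4 of the 6 runs above and not in those of Trbv17 and Trbv31, which says only that these letters are not in this window. Trbv31 is the one beta member on the minus strand, downstream of the constant genes.

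The libraries differed widely before any comparison of groups. The deposited counts summed to between 16405306 and 36429515 per library, and between 599 and 8071 genes reached 10 counts. Fewer than 2000 genes did so in 4 libraries, namely TetLowProg replicate 10, TetLowReg replicate 6 and replicates 1 and 2 of TetHighProg. No count of any alpha or beta V, J or constant gene was found in TetHighProg replicate 2, which had 78155 counts of Cd8b1 (a CD8 chain), 15 of Cd3g and 6 of Cd3e (signaling chains of the receptor). Cd8a, the other CD8 chain, was at 0 in TetHighProg replicates 1 and 2 and in TetLowProg replicate 10, and at 47022 in TetLowReg replicate 6, where Cd8b1 had 8 counts. Of 5 B cell markers, at least 4 reached 10 counts in TetLowReg replicates 7 and 8 and TetLowProg replicate 12, with 21148, 11334 and 38351 summed counts, and the other 6 libraries had 0 or 1 count. Of 6 macrophage and dendritic cell markers, 1 reached 10 counts in TetHighProg replicates 1 and 5 and TetLowProg replicate 12 (51557, 3744 and 18082 summed counts), 2 did in TetLowReg replicate 7 (299738) and 3 in TetLowReg replicate 8 (19957), and none in the other 4 libraries. Of 4 markers of CD4 and regulatory T cells, 3 reached 10 counts in TetLowReg replicates 7 and 8 (2420 and 1311 summed counts), 1 in TetLowProg replicate 9 (8764), 2 in TetLowProg replicate 12 (1663) and none in the other 5 libraries. Those 3 were Cd4, Foxp3 and Ctla4. TetLowProg replicate 9 had Ctla4 alone, and replicate 12 had Il2ra and Ctla4, with Cd4 at 0 and 2 counts and Foxp3 at 0. The part of such cells in the results was not tested.

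Of the 120 members, 63 reached 10 counts in at least 1 library (47 alpha, 16 beta), 7 had between 1 and 9 counts at most (6 alpha, 1 beta) and 50 had no count in any library (46 alpha, 4 beta). Most detected segments were found in few libraries. Among alpha members, 18 reached 10 counts in a single library and 13 in exactly 2, and 1 did so in 8. Among beta members, 5 reached 10 counts in a single library, 6 in exactly 2, and none in more than 6.

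One alpha segment led most libraries. Trav3-3 (ENSMUSG00000094828, chr14:53903386-53903963, plus strand) reached 10 counts in each of the 8 libraries with alpha counts, and it was the largest alpha segment in 7 of them. The next most widespread were a segment that reached 10 counts in 6 libraries (Trav14-2), 2 that did so in 5 and 6 in 4. Its counts were 10743, 0 and 3875 in TetHighProg replicates 1, 2 and 5. TetLowProg replicates 9, 10 and 12 had 1080, 9204 and 2219, and TetLowReg replicates 6, 7 and 8 had 19435, 593 and 600. The groups overlapped, and within each group the highest library stood far above the lowest.

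As a share of all alpha V counts of its library, Trav3-3 held 60.6% (95% Clopper-Pearson interval 59.8 to 61.3) in TetHighProg replicate 1 and 37.2% (36.3 to 38.1) in replicate 5. In TetLowReg it held 76.2% (75.7 to 76.7), 25.9% (24.1 to 27.7) and 16.3% (15.1 to 17.6) in replicates 6, 7 and 8. In TetLowProg it held 18.3% (17.3 to 19.3), 95.6% (95.1 to 95.96) and 32.1% (30.96 to 33.2) in replicates 9, 10 and 12. The intervals cover counting error only, since the reads carry no molecular identifiers, and they are far narrower than the spread between libraries. The 3 highest shares came from 3 libraries with fewer than 2000 genes, 1 in each group.

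**Figure D1:**
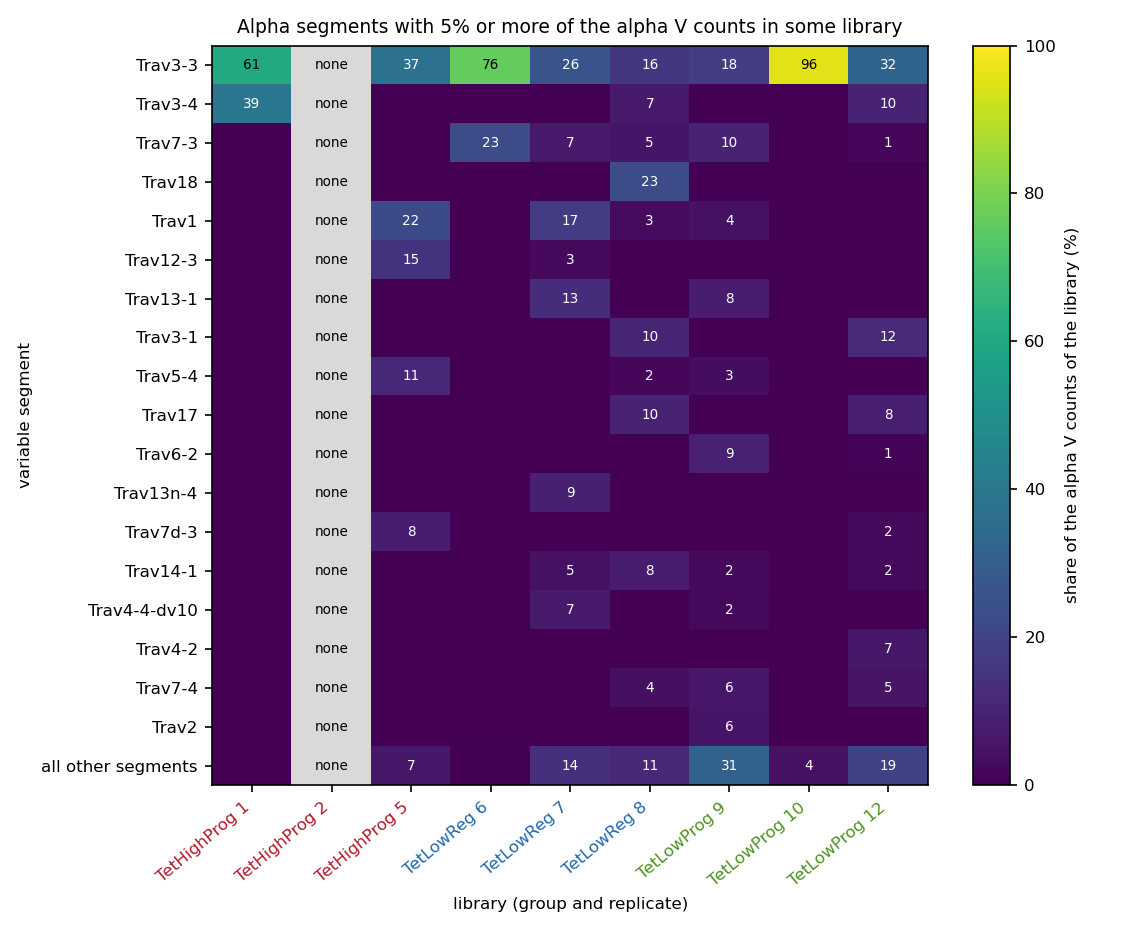
Heat map of the share of the alpha V counts of each library (color and rounded percent) for each alpha segment that held 5% or more in some library (rows), with the other segments summed in the last row; columns are the 9 libraries and gray marks a library with no alpha V count. Trav3-3 is the largest in all libraries with counts except TetLowReg 8, where Trav18 holds 23.1%, and most other segments are seen in few columns.

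The second segments were not shared in this way. In TetHighProg replicate 1 Trav3-4 held 39.4% (6988 counts) and, with Trav3-3, 99.9% of the alpha counts. In TetHighProg replicate 5 Trav1 held 22.4% (2338 counts) and Trav12-3 14.6%. TetLowReg replicate 6 had Trav7-3 at 23.3% (5939 counts), and 99.5% of its alpha counts came from this segment and Trav3-3. These 3 libraries thus each held a different second segment beside Trav3-3. In TetLowReg replicate 7 Trav1 was second at 17.3%, and in replicate 8 the order was Trav18 at 23.1% (848 counts, none in any other library), Trav3-3, and Trav3-1 at 10.4%. In TetLowProg replicate 9 Trav7-3 was second at 10.01%, in replicate 10 Trav14d-3-dv8 at 4.35%, and in replicate 12 Trav3-1 at 12.1%.

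Besides Trav3-3, 2 alpha members reached 10 counts in all 3 libraries of a group, both in TetLowReg. Trav7-3 (chr14:53680706-53681296) had 5939, 160 and 202 counts in TetLowReg, 591, 0 and 82 in TetLowProg and none in TetHighProg. Its near copy Trav7d-3, whose V exon differs at 2 of 288 bases, had 0, 0 and 811 counts in TetHighProg, 6, 0 and 0 in TetLowReg and 1, 0 and 137 in TetLowProg, and the assignment of reads between both is uncertain. With the Trav7 copies summed, TetHighProg replicate 5 (7.79% of alpha counts) lay above TetLowReg replicate 7 (7.202%) and below replicates 6 and 8 (23.3% and 9.52%). Trav14-2 (chr14:53878158-53878682) had 95, 98 and 123 counts in TetLowReg, 0, 0 and 182 in TetHighProg and 59, 0 and 23 in TetLowProg. Neither was the largest segment of any library.

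The number of alpha segments in use ranged from near 1 to more than 10. The effective number, the inverse Simpson index or the number of equally used segments that would give the same concentration, came to 1.92 in TetHighProg replicate 1 and 4.35 in replicate 5. TetLowProg replicates 9, 10 and 12 had 12.9, 1.09 and 6.77, and TetLowReg replicates 6, 7 and 8 had 1.57, 7.28 and 8.34. The means were 3.13 ± 1.72 (SD, n = 2) for TetHighProg, 6.93 ± 5.92 (n = 3) for TetLowProg and 5.73 ± 3.64 (n = 3) for TetLowReg, and every group overlapped the others. To reach 90% of the alpha counts took 1 segment in TetLowProg replicate 10, 2 in TetHighProg replicate 1 and TetLowReg replicate 6, 5 in TetHighProg replicate 5, and between 9 and 17 in the other 4 libraries. The mean share of the largest segment was 48.9% ± 16.5 (SD, n = 2) for TetHighProg, 48.6% ± 41.2 (n = 3) for TetLowProg and 41.7% ± 29.9 (n = 3) for TetLowReg. Single libraries carried these means, since the share was 25.2% without TetLowProg replicate 10 and 24.5% without TetLowReg replicate 6, and the effective number was 3.93 without TetLowProg replicate 9 and 1.92 without TetHighProg replicate 5. The 3 libraries with the lowest effective numbers each had fewer than 2000 genes at 10 counts, and the 4 with the highest had 6443 or more, so segment diversity moved with gene detection. The same 4 libraries were those in which markers listed for CD4 and regulatory T cells reached 10 counts. In TetLowProg replicate 9 this was Ctla4 alone, and in replicate 12 Il2ra and Ctla4, while Cd4 and Foxp3 stayed under 10 counts in both. Of the 4, the 3 other than TetLowProg replicate 9 were also those with B cell markers and with both of 2 erythroid markers at 10 counts (894, 486 and 1698 summed counts in TetLowReg replicates 7 and 8 and TetLowProg replicate 12, and 0 elsewhere). The part of gene detection or of other cells in the diversity was not tested.

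**Figure D2:**
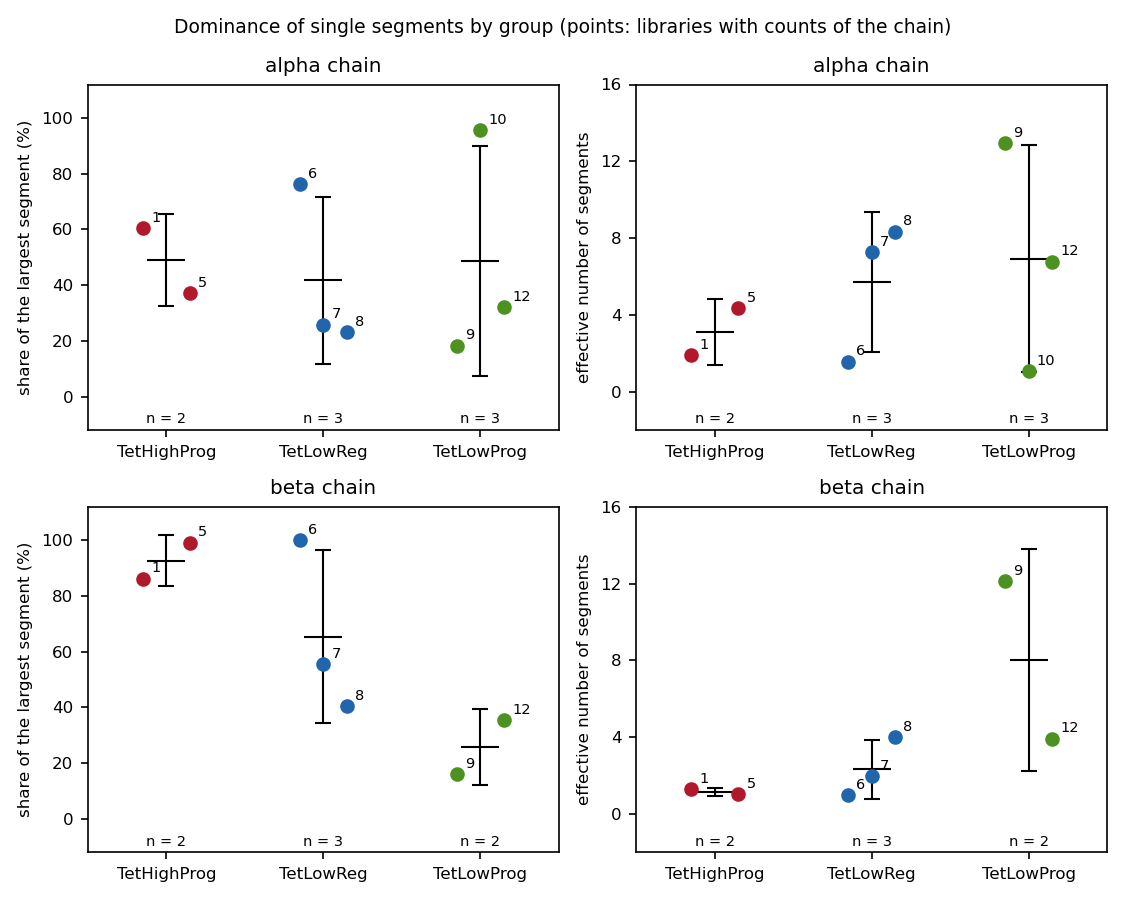
Share of the largest segment (left, percent of the V counts of the chain) and effective number of segments (right) for the alpha chain (top) and the beta chain (bottom), by group. Points are libraries labeled by replicate, and bars give the mean and SD over the libraries with counts of the chain; for the beta chain TetHighProg replicates 1 and 5 lie at 86.2% and 99.2%, and TetLowProg replicates 9 and 12 at 16.2% and 35.5%.

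Trav3-3 has near copies, so where its counts could be mixed with others was read from the genome. The mouse alpha locus of the reference holds 2 further blocks of duplicated V segments, marked d and n, to which 55 of the 99 alpha members belong. The V exon of Trav3-3 differed from those of Trav3d-3 and Trav3n-3 at 4 of 291 aligned bases (98.6% identity), and the exons of Trav3d-3 and Trav3n-3 were identical. It differed from Trav3-1 and from Trav3-4 at 28 bases (90.4% identity), while these 2 differed from each other at 6 (97.9%). The same stretch of 90 bases of the V exon is given for all 5 (GRCm39, plus strand), to show how little separates the copies of Trav3-3 and how much separates Trav3-1 and Trav3-4; capitals mark the bases that differ from Trav3-3.
Trav3-3 (chr14:53903773-53903862): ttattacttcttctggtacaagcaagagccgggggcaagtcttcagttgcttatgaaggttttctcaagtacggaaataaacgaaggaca
Trav3d-3 (chr14:53210305-53210394): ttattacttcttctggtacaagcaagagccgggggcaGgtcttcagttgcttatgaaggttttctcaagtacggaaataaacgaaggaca
Trav3n-3 (chr14:53521442-53521531): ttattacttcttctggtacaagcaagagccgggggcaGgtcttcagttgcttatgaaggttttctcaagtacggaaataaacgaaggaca
Trav3-1 (chr14:52818480-52818569): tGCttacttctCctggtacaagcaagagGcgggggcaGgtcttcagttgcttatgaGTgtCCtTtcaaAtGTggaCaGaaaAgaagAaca
Trav3-4 (chr14:54014843-54014932): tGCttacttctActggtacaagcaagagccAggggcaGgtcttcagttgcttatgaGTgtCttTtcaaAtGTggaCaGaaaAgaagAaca
In this window the 2 block copies differed from Trav3-3 at 1 base each, Trav3-1 at 17 and Trav3-4 at 16. Trav3d-3 had 1 count over all libraries and Trav3n-3 none. A read that maps to more than 1 place was left out of these counts, and the reference is not of the BALB/c strain, so the assignment of reads among Trav3-3 and these copies is uncertain. Trav3-1 and Trav3-4 were counted apart from Trav3-3, with Trav3-1 at 381 counts in TetLowReg replicate 8, 838 in TetLowProg replicate 12 and at most 9 elsewhere. Trav3-4 had 6988 counts in TetHighProg replicate 1, 270 in TetLowReg replicate 8, 690 in TetLowProg replicate 12 and at most 10 elsewhere. Summed over the 5 copies, the Trav3 subgroup held 100% of the alpha counts in TetHighProg replicate 1, 54.1% in TetLowProg replicate 12 and 34.0% in TetLowReg replicate 8.

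The absence of counts for many alpha members goes with their sequence. Of the 31-base words in the exons of an alpha member, a median of 18.7% occurred once in the genome, and for 34 of the 99 members none did. Among the 46 alpha members with no count, 30 had no unique word, against 2 of the 47 that reached 10 counts, which had a median of 35.2%. The value for Trav3-3 was 42.6%, for Trav3-4 61.1% and for Trav7-3 22.8%. Beta members were almost free of this, with between 87.9% and 100% unique words and 16 of 21 at 100%. A zero of an alpha member without unique words therefore says little about the use of that segment, whereas the 4 beta members with no count (Trbv5, Trbv21, Trbv23 and Trbv26) had 100% unique words. Trbv5 overlaps another annotated gene, 5830405F06Rik, and reads in such an overlap may enter neither gene. Trbv13-2 and Trbv31, which had counts, also overlap annotated genes (Gm67876 and Gm68469).

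**Figure D3:**
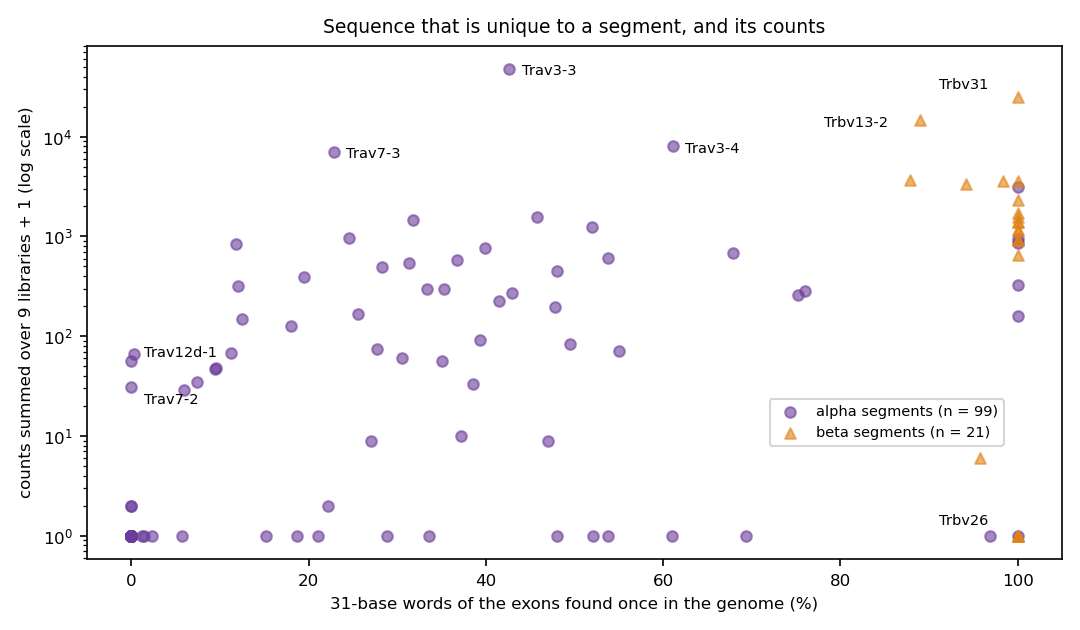
Counts summed over the 9 libraries plus 1 (vertical, log scale) against the percent of 31-base words of the exons of a segment that occur once in GRCm39 (horizontal), for 99 alpha (circles) and 21 beta (triangles) members. Most alpha members at 0% have no count, and all beta members lie at 87.9% or more.

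No single beta member led most libraries, though the Trbv13 subgroup did. Trbv13-2 reached 10 counts in 6 of the 7 libraries with beta counts. No beta member led more than 3 of the 7 libraries with beta counts, and 5 different members were the largest in a library, 3 of them of the Trbv13 subgroup. Summed over its 3 members, Trbv13 held 86.2% of the beta counts of TetHighProg replicate 1 and all of those of replicate 5. For TetLowProg its share was 22.6% (replicate 9) and 74.8% (replicate 12), and for TetLowReg it was 0%, 100% and 48.7%, so it led every library with beta counts but TetLowReg replicate 6. In TetHighProg replicate 1 Trbv13-2 held 86.2% (9967 counts, interval 85.5 to 86.8) and Trbv12-2 13.8%. In TetHighProg replicate 5 Trbv13-1 held 99.2% (2523 counts, interval 98.7 to 99.5), and the other 21 counts were of Trbv13-2. In TetLowReg replicate 6 all 24130 beta counts were of Trbv31 (interval 99.98 to 100). In each of these 3 libraries a different beta segment thus held 86.2% or more.

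In TetLowReg replicate 7 Trbv13-3 had 108 counts (55.7%, interval 48.4 to 62.8) and Trbv13-2 86 (44.3%), in all 194 beta counts, the fewest of any library with beta counts. In TetLowReg replicate 8 Trbv13-2 held 40.4% (789 counts) and Trbv20 24.7%, and 8 members reached 10 counts. TetLowProg replicate 9 had 16 members at 10 counts or more, led by Trbv17 at 16.2% (3593 counts) and Trbv19 at 10.5%. This was the most even library for both chains. In TetLowProg replicate 12 Trbv13-2 held 35.5% (1507 counts), Trbv13-3 29.7% and Trbv16 16.1%. TetLowProg replicate 10 had no count of any beta member, although Trbc2, a beta constant gene, had 11474 counts in it.

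**Figure D4:**
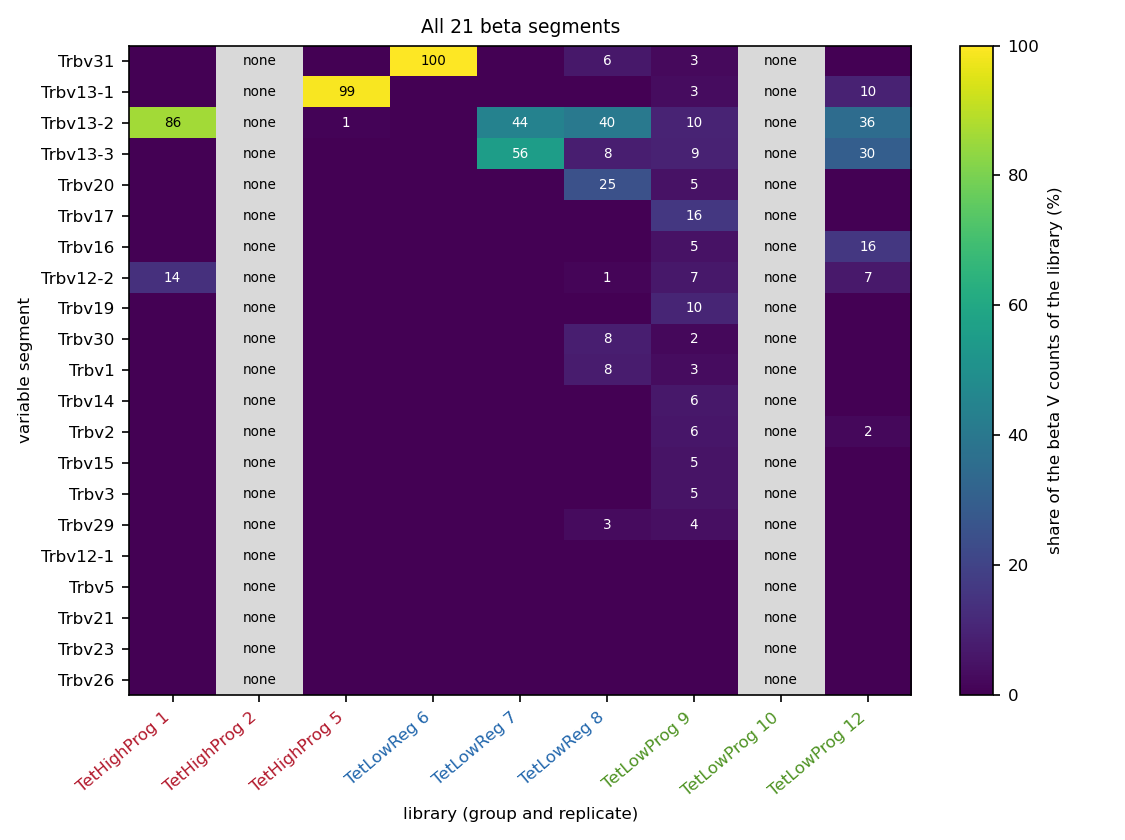
Heat map of the share of the beta V counts of each library (color and rounded percent) for all 21 beta members (rows) in the 9 libraries (columns); gray marks the 2 libraries with no beta V count. Trbv31 fills TetLowReg 6 and Trbv13-1 nearly fills TetHighProg 5, while TetLowProg 9 is spread over 16 segments.

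The mean share of the largest beta segment was 92.7% ± 9.19 (SD, n = 2) for TetHighProg, 25.9% ± 13.7 (n = 2) for TetLowProg and 65.3% ± 30.97 (n = 3) for TetLowReg. The TetHighProg libraries lay above both TetLowProg libraries, and TetLowReg reached from 40.4% to 100%. With members merged into subgroups such as Trbv13, the means were 93.1% for TetHighProg, 48.7% for TetLowProg and 82.9% for TetLowReg. The 2 TetHighProg libraries had 1298 and 3181 genes at 10 counts and no marker of CD4 and regulatory T cells there, and the 2 TetLowProg libraries had 8071 and 6443 genes and 1 and 2 of the 4 markers. Those were Ctla4 in replicate 9 and Il2ra and Ctla4 in replicate 12, with Cd4 at 0 and 2 counts and Foxp3 at 0. The part of gene detection or of these markers in the difference was not tested. The effective number of beta segments came to 1.31 in TetHighProg replicate 1 and 1.02 in replicate 5, 12.1 and 3.92 in TetLowProg replicates 9 and 12, and 1, 1.97 and 4.02 in TetLowReg replicates 6, 7 and 8. No test was made of these indices, and the TetLowProg library with no beta counts could not enter them. With the libraries that had fewer than 2000 genes left out, 1 TetHighProg library remained.

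The study stained Vβ chains in tumor-draining lymph nodes, and 5 members, the genes of Vβ3 and Vβ9 and the Trbv13 family (Vβ8), were compared in the sorted TILs. Trbv26 (Vβ3) had 0 counts in all 9 libraries, which in the 7 libraries with beta counts allows up to 3 counts each, for counting error only. The 2 libraries with no beta V count set no limit. Trbv17 (Vβ9) had 3593 counts in TetLowProg replicate 9 and 0 in the other 8 libraries. Neither was thus found in a TetLowReg library, where replicate 7 had 194 beta counts and replicate 6 had 766 genes at 10 counts. The study reported both expanded in regressors, but by antibody staining of lymph node cells, another measure in another tissue. Trbv13-1 (Vβ8.3) had 0, 0 and 2523 counts in TetHighProg, none in TetLowReg and 701, 0 and 405 in TetLowProg. Trbv13-2 (Vβ8.2) had 9967, 0 and 21 counts in TetHighProg, 0, 86 and 789 in TetLowReg and 2209, 0 and 1507 in TetLowProg. Trbv13-3 (Vβ8.1) had 1, 0 and 0 counts in TetHighProg, 0, 108 and 163 in TetLowReg and 2104, 0 and 1259 in TetLowProg.

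The shares of these 5 members were compared between groups over the libraries with beta counts, 2 or 3 per group. Of 15 comparisons 11 had counts in either group, and every adjusted p was 1 (two-sided exact permutation test, Benjamini-Hochberg over the comparisons with a value). The smallest unadjusted exact p was 0.2, for Trbv13-1, with a mean share of 6.35% in TetLowProg and 0 in TetLowReg (higher in 2 of 2 libraries), and 0.2 is also the smallest p that 2 libraries against 3 allow. Trbv13-3 averaged 19.6% in TetLowProg and 0.00432% in TetHighProg, with an exact permutation p of 0.333, the smallest that 2 against 2 allow. These designs cannot reach 0.05.

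The summed V counts were set beside the constant genes of the same chain. Alpha V counts were 17741, 0 and 10415 in TetHighProg, 25501, 2291 and 3677 in TetLowReg and 5903, 9632 and 6922 in TetLowProg. Trac, the alpha constant gene, had 27711, 0 and 24823 counts, then 50656, 3758 and 5724, then 19456, 19730 and 13224 in the same order. In every library with counts Trac exceeded the alpha V sum, whereas the beta V sum exceeded both beta constant genes together in TetHighProg replicate 1 (11566 against 11074 counts). As CPM (counts scaled to the total of all gene counts of the library), the alpha V sum averaged 330.0 ± 288 CPM (SD, n = 3) for TetHighProg, 255.1 ± 115 for TetLowProg and 481 ± 591 for TetLowReg. The beta V sum averaged 153 ± 177, 249 ± 321 and 406 ± 599 CPM in the same order (SD, n = 3 each). Without TetLowReg replicate 6 the alpha mean of that group was 144 CPM, below both other groups. In TetHighProg and TetLowReg the SD exceeded or neared the mean for both chains, and all groups overlapped. Single libraries carried the beta means, which were 56.1 CPM without TetHighProg replicate 1, 67.3 CPM without TetLowProg replicate 9 and 62.2 CPM without TetLowReg replicate 6.

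**Figure D5:**
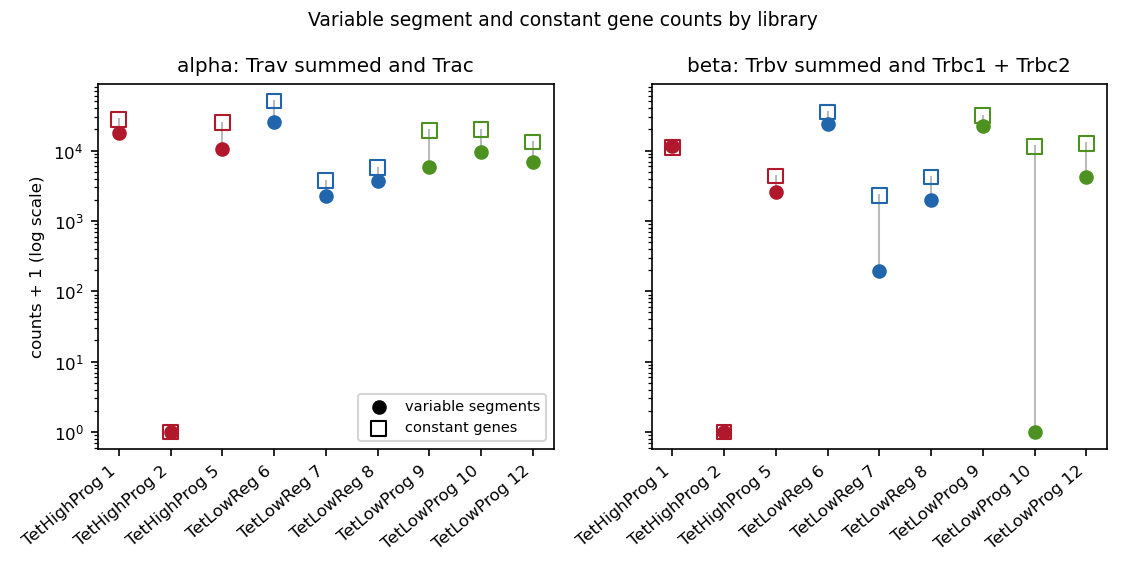
Counts plus 1 (log scale) of the summed variable segments (filled circles) and the constant genes (open squares) of the alpha chain (left) and the beta chain (right) in the 9 libraries, with a gray line joining the values of a library. Both chains are at 0 in TetHighProg 2, and TetLowProg 10 has 11479 counts of the beta constant genes and none of beta V segments.

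The beta constant genes and joining segments were read in the same libraries. The beta locus has 2 clusters, each with its own joining segments and constant gene, Trbj1 with Trbc1 and Trbj2 with Trbc2, and a rearrangement to a Trbj2 segment is spliced to Trbc2. Trbc1 made up 0.0271% of both constant genes in TetHighProg replicate 1 (3 counts against 11071), 0.0283% in TetLowReg replicate 6 (10 against 35359) and 0.0436% in TetLowProg replicate 10 (5 against 11474). It made up between 34.7% and 66.3% in the other 5 libraries with counts. All beta joining counts of those first 3 libraries were of the Trbj2 cluster, 21, 81 and 2966, and Trbj2-7 was the largest in each. In TetLowProg replicate 10, which had no beta V count, Trbj2-7 had 2404 counts (81.1%) and Trbj2-5 562. In TetHighProg replicate 5, where Trbv13-1 held 99.2%, Trbc1 made up 50.5% and Trbj1-2 and Trbj1-1 held 58.0% and 41.5% of the joining counts. A single V segment thus stood beside more than 1 joining segment in that library. There the Trbj2 segments had 7 of 1522 joining counts, although Trbc2 had 2149 counts beside 2191 of Trbc1. The joining counts thus did not mirror the constant genes in it. Trbv4, which the annotation lists but these counts do not hold, was not analysed here.

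The alpha joining segments followed the same division of libraries. In TetHighProg replicate 1, 2 joining segments had counts, Traj56 with 71.1% and Traj49, beside the 2 V segments of that library. TetLowReg replicate 6 had Traj50 at 79.2% and Traj9 at 20.8%, beside Trav3-3 and Trav7-3 at 76.2% and 23.3%. TetLowProg replicate 10 had Traj9 at 80.7% and Traj49 at 17.3%, beside Trav3-3 at 95.6%. The largest joining segment differed among these 3 libraries, in all of which Trav3-3 led the V segments. In the others the largest was Traj9 in TetHighProg replicate 5 (57.7%) and TetLowReg replicate 8 (37.1%), Traj18 in TetLowReg replicate 7 (42.6%) and TetLowProg replicate 12 (25.0%), and Traj2 in TetLowProg replicate 9 (19.1%). The joining segments were chosen for mention after their values were seen.

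How much of the V use was common to a pair of libraries was taken as the sum over segments of the smaller of both shares. For the alpha chain it ranged from 18.3% to 76.2% over 28 pairs, with a median of 34.5%, and in the pair with the most in common, TetLowReg replicate 6 and TetLowProg replicate 10, 76.2% came from Trav3-3 and 0.0196% from all else. Other pairs had more in common outside Trav3-3, with 34.7% of 51.0% for TetLowReg replicate 8 and TetLowProg replicate 12, 28.7% of 47.0% for TetLowReg replicate 7 and TetLowProg replicate 9, and 25.2% of 51.1% for TetHighProg replicate 5 and TetLowReg replicate 7. For the beta chain it ranged from 0% to 65.2% over 21 pairs, with a median of 10.4%. Pairs within a group overlapped pairs between groups. The TetHighProg pair had 37.2% in common for the alpha chain and 0.825% for the beta chain, the 3 TetLowReg pairs between 22.3% and 35.9% and between 0% and 48.7%, and pairs of a TetLowReg with a TetLowProg library between 19.4% and 76.2% and between 0% and 65.2%. These pairs share libraries with each other, so the values are a description.

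Expression of each member was then compared between groups in a fit over all genes (edgeR quasi-likelihood test, a call needing a log2 fold change beyond 2 in either direction and a p under 0.05 after Benjamini-Hochberg adjustment). Of the 120 members, 17 passed the filter on low counts among 5813 genes tested. In each of the 3 comparisons edgeR called 0 members, and it called 0% of all genes. In simulated data with a dispersion like that of these libraries it called no changed gene either, so these counts cannot show whether members differ. Most members went untested because they had counts in too few libraries. DESeq2 with poscounts size factors called 0 of 70 members in each (5.77%, 4.84% and 0.153% of all 17615 genes). It gave an adjusted p to 4228, 4228 and 6820 of these genes, and a gene without one could not be called. Trav3-3 had none in any comparison, nor had Trbv31 and Trav7-3 for TetLowReg against TetHighProg. DESeq2 with default size factors called 2 of 70 members for TetLowReg against TetHighProg (10.3% of all genes), 6 of 70 for TetLowProg against TetHighProg (13.4%) and 1 of 70 for TetLowProg against TetLowReg (0.352%). With limma-voom the members called were 4, 4 and 0 of 17 (41.5%, 49.9% and 0% of all genes). Trav7-4 and Trbv13-3, both higher in TetLowProg than in TetHighProg, were called by both of the last settings, as was Trav14-1, with 0, 105 and 280 counts in TetLowReg against 0, 0 and 1 in TetHighProg. The comparisons share groups, so their values are not independent.

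For TetLowReg against TetHighProg, 3 of the 17 members had an unadjusted p under 0.05, where 19.5% of all genes did. These shares depended on which libraries were in the fit. Leaving 1 out also changed the genes that passed the filter, from 5813 to between 6940 and 8513. Without any 1 of the TetHighProg libraries, TetLowReg replicates 7 and 8 or TetLowProg replicates 9 and 12, between 1.60% and 3.95% of genes and 1 member (of 24 to 40 tested) had such a p, and without TetLowReg replicate 6 or TetLowProg replicate 10, 28.4% and 24.4% of genes and 8 of 40 and 6 of 39 members did. With edgeR on these 2 groups alone it was 2.69% of genes and 1 of 7 members. Trbv31 had 0, 0 and 0 counts in TetHighProg and 24130, 0 and 124 in TetLowReg, with a log2 fold change of 12.09 (SE 5.17, edgeR adjusted p = 0.233), a fitted value that rests mostly on TetLowReg replicate 6. Trav7-3, with the counts given above, had a log2 fold change of 10.19 (SE 4.93, edgeR adjusted p = 0.233) and was higher in all 3 TetLowReg libraries. This value was 7.32 without TetLowReg replicate 6, and with the copies of Trav7 summed the groups overlapped, as given above. Trbv13-1 had a log2 fold change of -8.76 (SE 4.35, edgeR adjusted p = 0.233), resting on TetHighProg replicate 5 alone, and without that library the gene had no count in either group. The median log2 fold change was 0.48 over the 17 members and 3.52 over all genes tested. Without the filter on low counts it was 0 over the 70 members with a count and 1.31 over all genes, and in a fit of these 2 groups alone it was 0.41 over 7 members and 0.35 over all genes, so the order turned.

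For TetLowProg against TetHighProg, 2 of the 17 members had an unadjusted p under 0.05, where 25.4% of all genes did. Without any 1 of the same 7 libraries this was between 1.95% and 3.91% of genes and 0 or 1 member, without TetLowReg replicate 6 or TetLowProg replicate 10 it was 31.6% and 31.5% of genes with 12 of 40 and 10 of 39 members, and on these 2 groups alone it was 4.56% of genes and 0 of 8 members. Trav7-4 had 346, 0 and 354 counts in TetLowProg and none in TetHighProg (log2 fold change 6.31, SE 3.14, edgeR adjusted p = 0.193). Trav9-2 had 182, 0 and 93 counts against none (log2 fold change 4.86, SE 2.47, edgeR adjusted p = 0.193). Both were thus absent from TetLowProg replicate 10 as well as from TetHighProg. The medians were -0.52 over the 17 members and 4.27 over all genes, and 2.35 over 70 members and 0.18 over all genes without the filter, so their order turned with the filter. For TetLowProg against TetLowReg no member had an unadjusted p under 0.05, where 0.929% of all genes did (from 0.144% without TetLowProg replicate 9 to 6.47% without TetLowReg replicate 6, with 4 of 39 members without TetLowProg replicate 10 and 0 without any other library), and the medians were -0.06 and 0.35 (0.59 and -0.34 without the filter).

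Trav3-3 itself did not differ between groups beyond its error in this fit. Its log2 fold change was 0.79 (SE 3.64, edgeR adjusted p = 0.951) for TetLowReg against TetHighProg and -0.10 (SE 3.61, edgeR adjusted p = 0.994) for TetLowProg against TetHighProg. For TetLowProg against TetLowReg it was -0.89 (SE 3.64, edgeR adjusted p = 0.99997). The standard errors span more than a 10-fold change in either direction, so a difference of that size would not have been detected. Of the 9 other receptor genes (Trac, Trbc1, Trbc2, Cd3e, Cd3d, Cd3g, Cd247, Cd8a and Cd8b1), all 9 were tested, and edgeR called 0 in each comparison, none with an unadjusted p under 0.05. DESeq2 called 1, 0 and 0 with poscounts size factors and 1, 1 and 0 with default ones, and limma-voom called 2, 3 and 0, in the order TetLowReg against TetHighProg, TetLowProg against TetHighProg and TetLowProg against TetLowReg.

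By CPM, Trav14d-3-dv8 and Trav7-3 were higher in every TetLowReg library than in every TetHighProg library, 2 of the 47 members with a count in these groups, beside 2.28% of all genes. The first rests on 1, 2 and 109 counts against 0, 0 and 1. Beside the second, its near copy Trav7d-3 was at 35.7 CPM in TetHighProg replicate 5, above Trav7-3 in TetLowReg replicates 7 and 8 (4.39 and 12.3 CPM). No member lay wholly lower (0.390% of all genes). Between TetLowProg and TetHighProg no member of 66 was set apart (3.49% of genes higher, 0.323% lower). Between TetLowProg and TetLowReg only Trav14-2 was, lower in TetLowProg, 1 of 66 members (0.528% of genes lower, 1.06% higher).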

How the data were processed

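Libraries were made with the Smart-seq2 protocol from tetramer-sorted cells. The authors deposited raw read counts per gene and library, in the layout of STAR gene counts (STAR 2.7.6a, GRCm39; featureCounts is also named in the submitters' notes). Reads mapped to several places are in a separate line and enter no gene. The unstranded counts were used as deposited. Gene types, symbols and coordinates came from GENCODE M39 on GRCm39, which held 28645 of the 32976 gene identifiers. It lists 132 members, of which 12 (11 alpha, 1 beta) were not analysed here.

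Members and gene lists were chosen with earlier results of these data known. Named members were the 2 largest segments of each chain and library, the segments Trbv26, Trbv17, Trbv13-1, Trbv13-2 and Trbv13-3, members with 10 counts or more in all 3 libraries of a group, members called by edgeR, the other receptor genes and near copies. Others were named after their values were seen.

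Shares were computed per chain and library. Groups were compared with edgeR 4.0.16 (filterByExpr, TMM factors, prior count 2, all 9 libraries in one model), tested on simulated data, where it called no changed gene at a dispersion like that of these libraries. SE is the log2 fold change divided by the root of the F statistic. DESeq2 1.42.0 and limma 3.58.1 were alternatives. The common dispersion was 8.12.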

Additional observations from a re-analysis of the deposited data

How the results depend on the processing

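In each comparison edgeR called 0 members under every scaling, filter and left-out library tried. It also called no changed gene in simulated data of like dispersion, so the unchanged 0 does not make the result firmer. DESeq2 with poscounts size factors, run once on all libraries, called 0 as well, but most genes had no adjusted p in it and could not be called. The next counts are in the order TetLowReg against TetHighProg, TetLowProg against TetHighProg, TetLowProg against TetLowReg. DESeq2 with default size factors called 2, 6 and 1 of 70 members (10.3%, 13.4% and 0.352% of all genes). With quality weights limma-voom called 4, 4 and 0 of 17 (41.5%, 49.9% and 0%). The cause was not tested. Without the 4 libraries with fewer than 2000 genes, an alternative chosen after seeing the data, edgeR called 0 members again, with 63 tested (0.0232%, 0.0232% and 0% of all genes).

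With copies merged into subgroups the mean share of the largest alpha group in TetHighProg became 68.6%. That of the largest beta group became 93.1% in TetHighProg, 48.7% in TetLowProg and 82.9% in TetLowReg. The mean effective number of alpha segments became 2.63, 4.36 and 4.01 in the same order, and that of beta segments 1.16, 5.25 and 1.72. By construction, merging cannot lower the largest share or raise the effective number. Per base of annotated exon, also chosen after seeing the data, the same segment led in 8 of 8 libraries for the alpha chain and 7 of 7 for the beta chain. By CPM instead of share, TetLowProg minus TetLowReg turned positive for Trbv13-2 (19.4 CPM, from -5.50 percentage points) and Trbv13-3 (28.3 CPM, from -1.76). With a library left out these 2 share differences also changed sign, from -19.6 to 7.31 and from -12.4 to 15.4 percentage points, as did that of Trbv13-2 for TetLowProg minus TetHighProg (-63.4 to 21.9) and TetLowReg minus TetHighProg (-57.9 to 27.4) and that of Trbv13-1 for TetLowProg minus TetHighProg (-92.8 to 6.35). The median log2 fold change over the tested members, 0.48, -0.52 and -0.06 with TMM, was -0.16, -0.08 and 0.54 with library size alone and -0.40, -2.49 and -0.52 with poscounts factors, and over all genes in TetLowReg against TetHighProg it moved from 3.52 to 3.04 and 3.01. In fits of 2 groups alone it was 0.41, -0.64 and -0.06 (0.35, 0.91 and 0.33 over all genes). It was 0, 2.35 and 0.59 over 70 members with no filter (1.31, 0.18 and -0.34 over all genes), 0, 1.70 and 0.10 with DESeq2 poscounts (1.58, 0 and -1.81), 0, 6.64 and 1.97 with DESeq2 default (3.43, 0.83 and -0.08) and 4.30, 4.03 and 0.38 over 17 with limma-voom (6.34, 7.14 and 0.27). The sign of Trav3-3 was not stable. TetLowReg against TetHighProg gave between -2.19 and 2.17 with a library left out and -2.07 without the 4 libraries. TetLowProg against TetHighProg gave 0.11 with poscounts factors in edgeR, 0.22 and 0.0403 with DESeq2 (default and poscounts), 3.87 with limma-voom and between -1.93 and 1.11 with a library left out. TetLowProg against TetLowReg gave 0.10 with limma-voom, 0.38 without the 4 libraries and between -2.89 and 2.10 with a library left out. Over the alternatives the adjusted p of Trav7-3 ranged from 0.0178 (limma-voom) to 0.999 (edgeR on 2 groups), that of Trbv31 from 0.0930 to 0.694, that of Trbv13-1 from 2.37e-09 (DESeq2, default) to 1, that of Trav7-4 from 0.0240 to 0.781 and that of Trav9-2 from 0.0543 to 0.781.

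Without 1 library, the mean largest alpha share ranged from 37.2% to 60.6% in TetHighProg, 24.5% to 51.0% in TetLowReg and 25.2% to 63.8% in TetLowProg, the effective alpha number from 1.92 to 4.35, 4.43 to 7.81 and 3.93 to 9.85 in that order, and the mean largest beta share from 86.2% to 99.2% in TetHighProg, 48.0% to 77.8% in TetLowReg and 16.2% to 35.5% in TetLowProg. The summed alpha V level ranged from 229.5 to 495 CPM in TetHighProg, 191 to 301 in TetLowProg and 144 (without replicate 6) to 691 in TetLowReg, and the beta V level from 56.1 to 229, 67.3 to 373 and 62.2 to 607 in the same order. No paired analysis was possible because the groups share no replicate numbers. With 194 beta counts, TetLowReg replicate 7 limits what can be said of rare beta segments in it.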

Other observations

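V segments of the gamma and delta chains, which CD8+ alpha beta T cells do not use in their receptor, also had counts. The 7 gamma V genes counted summed to 20844 in TetHighProg replicate 1, to 668 in TetLowProg replicate 9, to 45 in TetHighProg replicate 2 and to 1 in TetLowProg replicate 10. They had none in the other 5 libraries. Trgc2, a gamma constant gene, had 31359 counts in TetHighProg replicate 1, more than Trac (27711), and 1039 in TetLowProg replicate 9. The 5 delta V genes summed to 1189 counts in TetLowProg replicate 10, 191 in TetLowProg replicate 9 and 142 in TetLowReg replicate 8.

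The median distance from a counted alpha V read to the first joining segment was between 490 and 617 kb in every library with counts. It was 490 kb in 5 of the 8 libraries, where the median read was one of Trav3-3. Members of the duplicated d and n blocks, 55 of 99, held between 0.00564% and 13.7% of the alpha counts of a library.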
